A study of Mus musculus with 12 samples.

Results

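The signalling lymphocytic activation molecule (SLAM) family receptors and their adaptor SAP were followed in mouse T cells with and without coronin 1, the actin-associated protein encoded by Coro1a. Its 7 members here, of 45706 genes in the deposited table, are the receptor genes Slamf1, Slamf6, Slamf7, Cd84 and Ly9, the receptor and ligand gene Cd48, and Sh2d1a, which encodes SAP. The rule that defines them uses gene symbols and no measured value. Polyadenylated RNA was sequenced with a stranded kit in 4 groups of 3 libraries, which are wild-type (WT) conventional, Coro1-/- (KO) conventional, WT regulatory and KO regulatory T cells. The series sets these groups in a study of allograft rejection, and no label names a graft, a treatment, a strain, an age, a source organ or a sort gate. Nothing in the labels says that replicates came from separate animals, so p-values measure only the spread between these libraries. The questions put to each member are whether its transcript differs between KO and WT in either cell type, whether it differs between the cell types, and whether the KO difference depends on the cell type.

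SLAM receptors belong to the CD2 branch of the immunoglobulin superfamily and sit on most blood cells. Slamf1, Slamf6, Slamf7, Cd84 and Ly9 each bind another copy of themselves on a neighbouring cell, whereas Cd48 is a lipid-anchored protein that binds Cd244 and, in mice, Cd2. The cytoplasmic tails of the self-binding receptors carry tyrosine switch motifs, to which SAP or the related adaptor EAT-2 docks. SAP brings in the kinase Fyn and keeps inhibitory phosphatases such as SHP-1 (Ptpn6) and SHIP-1 (Inpp5d) away. In T cells the pathway is known for the contacts of follicular helper T cells with B cells and for the development of NKT and other innate-like T cells, and human loss of SAP causes X-linked lymphoproliferative disease. B cells, plasma cells, NK cells, macrophages and dendritic cells also express members of the family.

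Of the 7 members, 6 lie in 1 stretch of chromosome 1 that spans 365 kb (GRCm38, 171588624 to 171953170), in the order Ly9 (minus strand), Slamf7 (minus), Cd48 (plus), Slamf1 (plus), Cd84 (plus) and Slamf6 (plus). Sh2d1a lies on the plus strand of the X chromosome (42502453 to 42529330). A pair of genes on chromosome 1 moved in one direction between the cell types and another pair in the other: Slamf1 and Slamf7, which were higher in regulatory libraries, and Slamf6 and Cd84, which were lower there. The 250 bases before their RefSeq starts are shown for that reason (GRCm38.p6, 5′ to 3′ on the gene's strand), with capitals marking each match to the AP-1 motif TGANTCA or the RUNX motif TGTGGT on either strand. The windows are chr1:171766882-171767131 (plus strand), chr1:171649000-171649249 (minus), chr1:171917212-171917461 (plus) and chr1:171839447-171839696 (plus).
Slamf1: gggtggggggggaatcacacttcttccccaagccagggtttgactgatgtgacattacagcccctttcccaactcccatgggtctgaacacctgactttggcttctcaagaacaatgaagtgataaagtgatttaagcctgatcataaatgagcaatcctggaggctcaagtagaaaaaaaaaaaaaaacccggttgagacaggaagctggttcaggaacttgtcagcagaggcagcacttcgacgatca
Slamf7: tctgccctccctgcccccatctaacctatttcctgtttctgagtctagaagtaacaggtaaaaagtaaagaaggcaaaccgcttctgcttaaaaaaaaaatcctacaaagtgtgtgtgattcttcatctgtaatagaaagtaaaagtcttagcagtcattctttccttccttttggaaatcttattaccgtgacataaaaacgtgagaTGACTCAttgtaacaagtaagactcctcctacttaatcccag
Slamf6: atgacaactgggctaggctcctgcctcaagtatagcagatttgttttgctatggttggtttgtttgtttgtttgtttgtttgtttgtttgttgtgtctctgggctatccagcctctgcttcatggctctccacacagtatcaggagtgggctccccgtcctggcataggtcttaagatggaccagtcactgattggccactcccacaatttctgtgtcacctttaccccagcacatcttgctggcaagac
Cd84: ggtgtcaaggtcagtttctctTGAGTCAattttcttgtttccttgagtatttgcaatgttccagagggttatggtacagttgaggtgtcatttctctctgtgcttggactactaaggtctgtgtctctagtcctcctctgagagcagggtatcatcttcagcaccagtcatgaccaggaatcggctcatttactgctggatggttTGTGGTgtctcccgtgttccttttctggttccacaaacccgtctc
The AP-1 letters were found once in the Slamf7 and once in the Cd84 window, and in 6.75% of 32851 promoter windows of the same length. RUNX letters were found in the Cd84 window, in the Cd48 window (not shown) and in 14.0% of all windows. The Slamf1 and Slamf6 windows held neither. The cAMP response element TGACGTCA, searched because coronin 1 has been linked to cAMP signalling, was in none of the 5 member windows matched (Slamf1, Slamf6, Slamf7, Cd84 and Cd48) and in 1.55% of all windows. The ETS letters CGGAAG were in none of the 5 and in 13.6% of all windows. The NFAT letters GGAAA, in 55.6% of all windows, were in all of these but Slamf6, with 3 matches in Slamf7. In each pair that moved alike the AP-1 letters were found in 1 member and not in the other. RefSeq places the Slamf7 start inside the longer GENCODE M21 gene, so that its window covers part of that gene.

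Libraries held 19686870 to 33404302 gene counts, and members had 233 to 8948 counts in a library. Coro1a was at 2123 to 2711 CPM (read counts relative to library size, with TMM scaling) in the 6 WT and 20.9 to 47.2 CPM in the 6 KO libraries, as labelled. Foxp3, the lineage factor of regulatory T cells, was at 20.99 to 27.03 CPM in WT conventional, 29.2 to 66.2 CPM in KO conventional and 443 to 641 CPM in regulatory libraries. The regulatory libraries also carried B cell transcripts. A list of 12 B cell markers summed to 4416 to 6234 CPM for WT and 4998 to 6098 CPM in KO regulatory libraries, against 5.54 to 7.46 and 38.7 to 68.1 CPM in the conventional ones. In conventional libraries, all 12 NK cell, 12 B cell, 14 macrophage and monocyte and 9 dendritic cell markers and 11 of 12 neutrophil markers were called higher in KO. The share of all genes called higher there was 23.3%. These lists were chosen with earlier results of these data known, so their counts describe the libraries and are no independent test. In the regulatory comparison 3 NK cell and 5 neutrophil markers were higher in KO, against 4.01% of all genes, and no B cell, macrophage or dendritic cell marker was called. The 6 T cell genes Lat, Cd5, Cd6 and the CD3 chains Cd3d, Cd3e and Cd3g summed to 3062 to 3351 CPM in WT conventional, 1948 to 2315 in KO conventional, 1683 to 2322 in WT regulatory and 1083 to 1662 in KO regulatory libraries. No marker of these lists was at 0 in all libraries. WT regulatory replicate 3 and KO regulatory replicate 1 held both Xist (764 and 576 CPM) and Y-linked reads (20.2 and 61.2 CPM) and so carry reads typical of both sexes. Results that rest on these 2 libraries are given with and without them, and results that turn when libraries are scaled to the 6 T cell genes are given both ways. In bulk RNA, fewer cells of a type and less RNA per cell cannot be told apart.

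Slamf1, a self-ligand receptor that promotes helper T cell cytokine production, was higher in all 6 regulatory than in all 6 conventional libraries. Its level was 29.02, 27.02 and 28.5 CPM in WT conventional and 31.4, 36.1 and 34.1 CPM in KO conventional replicates 1 to 3. Regulatory libraries were at 79.7, 73.3 and 70.7 for WT and at 58.2, 67.5 and 68.5 CPM for KO. Means rose in the order WT conventional (28.2 ± 1.04), KO conventional (33.8 ± 2.34), KO regulatory (64.8 ± 5.67) and WT regulatory (74.5 ± 4.64 CPM, SD, n = 3), and neighbouring groups did not overlap. The neighbours KO and WT regulatory did not differ at the threshold.

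Slamf7, known for its high levels on plasma cells and NK cells, had the widest range of the 7 relative to its level. WT conventional libraries held 17.2, 8.21 and 7.46 CPM, with replicate 1 well above the other two, and KO conventional libraries 29.1, 25.96 and 39.8 CPM. WT regulatory libraries held 41.1, 54.4 and 48.6 CPM and KO regulatory ones 54.3, 52.99 and 50.4 CPM. The group order was WT conventional (10.96 ± 5.43), KO conventional (31.6 ± 7.26), WT regulatory (48.03 ± 6.64) and KO regulatory (52.6 ± 1.99 CPM, SD, n = 3). The 2 regulatory groups overlapped and the others did not.

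Slamf6, also called Ly108, is the SAP-coupled receptor best known from follicular helper T cells and from NKT cell selection. It stood at 301, 268 and 249 CPM in WT conventional and 191, 254 and 190.4 CPM in KO conventional libraries. It stood at 188, 208 and 188 CPM in WT regulatory and 119, 119 and 130.5 CPM in KO regulatory libraries. KO conventional replicate 2 lay inside the WT conventional range, while every KO regulatory library lay below every other library. Means fell in the order WT conventional (273 ± 26.1), KO conventional (212 ± 36.3), WT regulatory (195 ± 11.5) and KO regulatory (123 ± 6.55 CPM, SD, n = 3). KO conventional and WT regulatory libraries overlapped.

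Cd84, a self-binding receptor that stabilises contacts between T and B cells, followed the same order with less spread. Conventional libraries were at 205, 192 and 179.6 for WT and at 172, 181 and 176 CPM for KO, which overlapped at 1 library. Regulatory libraries were at 122, 133 and 123 for WT and at 102, 103 and 100.2 CPM for KO, with no overlap. Group means were 192 ± 12.5, 176 ± 4.18, 126 ± 6.07 and 102 ± 1.55 CPM (SD, n = 3) in WT conventional, KO conventional, WT regulatory and KO regulatory cells.

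Ly9, a self-binding receptor whose loss in mice expands innate-like T cells, had the narrowest range relative to its level. Its level was 219, 228 and 237 CPM in WT conventional, 194, 198 and 193 in KO conventional, 227, 229 and 215 in WT regulatory and 194, 211 and 218 CPM in KO regulatory libraries. From the highest mean to the lowest the order was WT conventional (228 ± 9.11), WT regulatory (224 ± 7.55), KO regulatory (208 ± 12.7) and KO conventional (195 ± 2.97 CPM, SD, n = 3). Each neighbouring pair in that order overlapped, and KO conventional lay wholly below WT conventional.

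Cd48, the ligand of Cd2 and Cd244, stood apart in 1 group. WT regulatory libraries held 234, 251 and 195 CPM, above all 9 others. WT conventional libraries held 154, 148 and 146 CPM, KO conventional 155, 143 and 162 CPM and KO regulatory 167, 163 and 175 CPM. Means were 149 ± 4.26 in WT conventional, 153 ± 9.60 in KO conventional, 169 ± 6.12 in KO regulatory and 227 ± 28.8 CPM in WT regulatory cells (SD, n = 3). The 2 conventional groups overlapped.

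Sh2d1a, the SAP adaptor gene, was lowest in KO regulatory cells. Conventional libraries were at 45.9, 49.9 and 49.4 for WT and at 49.8, 61.2 and 51.8 CPM for KO. Regulatory libraries were at 50.02, 49.4 and 33.7 for WT and at 20.8, 32.7 and 36.03 CPM for KO. The lowest library of each regulatory group, WT replicate 3 and KO replicate 1, was the one with RNA of both sexes. Means fell from KO conventional (54.2 ± 6.10) through WT conventional (48.4 ± 2.18) and WT regulatory (44.4 ± 9.21) to KO regulatory (29.8 ± 7.997 CPM, SD, n = 3), and each neighbouring pair overlapped.

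**Figure D1:**
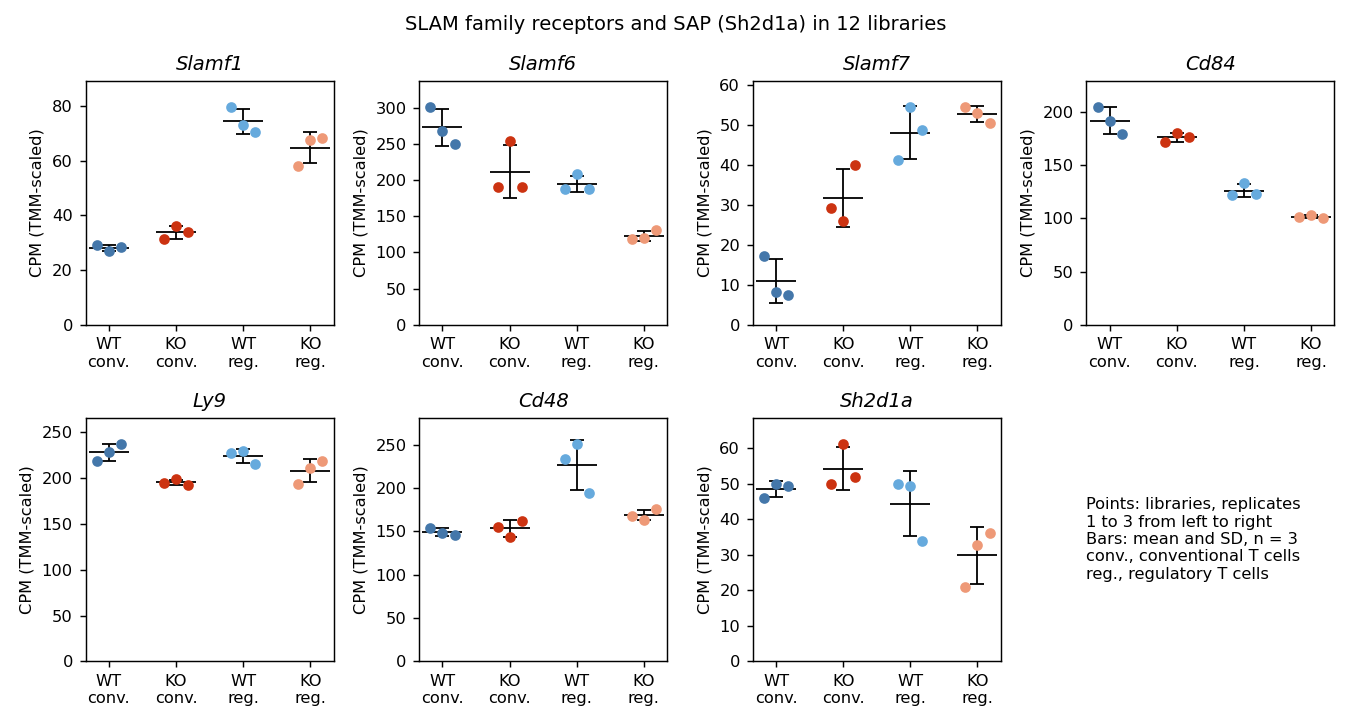
TMM-scaled level in CPM (linear axis from 0) of the 7 members, 1 panel per gene, with a point for each of 12 libraries and bars for the mean and SD of 3. Slamf1 and Slamf7 are higher and Slamf6 and Cd84 lower in regulatory than in conventional libraries, and Cd48 is highest in the WT regulatory group at 195 to 251 CPM. Relative to 6 T cell genes, the Slamf6 and Cd84 differences between the cell types of WT turn to 0.15 and 0.03 on the log2 scale.

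Set beside each other per kilobase of exon, the members spanned more than an order of magnitude. In WT conventional cells Cd48 led at 125 ± 3.59 CPM per kb, followed by Ly9 at 68.9 ± 2.75, Cd84 at 30.6 ± 1.997 and Slamf6 at 25.2 ± 2.41 CPM per kb (SD, n = 3). Sh2d1a was at 8.80 ± 0.396, Slamf1 at 4.58 ± 0.170 and Slamf7 at 2.40 ± 1.19 CPM per kb. In KO regulatory cells Cd48 (142 ± 5.14), Ly9 (62.8 ± 3.84) and Cd84 (16.2 ± 0.248) kept the upper places. Slamf7 (11.5 ± 0.434), Slamf6 (11.3 ± 0.605) and Slamf1 (10.5 ± 0.920 CPM per kb) followed there with overlapping ranges of mean and SD, and Sh2d1a was last at 5.42 ± 1.45 CPM per kb. Lengths are exon unions of GENCODE M21 and may differ from the authors' annotation.

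The first comparison asked what loss of coronin 1 changed in conventional cells. Slamf7 rose 2.89-fold and Slamf1 1.20-fold, whereas Slamf6 and Ly9 fell to 0.776 and 0.856 of WT. Cd84, Cd48 and Sh2d1a did not pass the threshold. So 2 of 7 members were called higher and 2 lower by edgeR's quasi-likelihood test with Benjamini-Hochberg adjustment over 15922 genes, against 23.3% higher and 25.4% lower of all genes. Those shares are close to what the members show, so the number of calls does not set them apart. The members' median log2 fold change was 0.04, beside -0.05 for all genes.

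The log2 fold change of Slamf7 was 1.53 (SE 0.27, adjusted p = 8.49e-04), with a 95% interval of 0.94 to 2.12. Macrophage and monocyte markers in WT conventional replicates 1 to 3 summed to 371, 576 and 441 CPM, and in KO conventional ones to 2689, 1966 and 4202 CPM. NK cell markers summed to 82.2, 67.9 and 66.8 and 459.9, 347 and 674 CPM, and plasma cell markers to 61.8, 54.9 and 54.8 and 105, 99.5 and 146 CPM. KO replicate 3 was highest and KO replicate 2 lowest in each of these sums and in Slamf7. B cell and dendritic cell marker sums had the same order in KO (41.8, 38.7 and 68.1 CPM, and 180, 142 and 276 CPM). Neutrophil (726, 363 and 375), gamma delta T cell (217, 194 and 216) and mast cell and basophil sums (76.4, 45.1 and 61.1 CPM) were highest in KO replicate 1. Such an order rests on 3 libraries. Among WT libraries replicate 1 was highest in Slamf7 and in the NK and plasma cell sums, and lowest in the macrophage sum. Regulatory T cell markers, a list of 6 with Foxp3 and Ikzf2, summed to 190.1, 132 and 133 CPM in WT conventional replicates 1 to 3. In KO conventional ones they summed to 255, 425 and 400 CPM, and 5 of the 6 were called higher in KO. The part of these cells in the Slamf7 and Slamf1 differences, both genes being higher in regulatory libraries, was not tested.

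Slamf1 changed by 0.26 (SE 0.08, adjusted p = 0.0159), a rise that was no longer called without WT replicate 2 (0.23, adjusted p = 0.0653) or KO replicate 2 (0.21, adjusted p = 0.0622). Slamf6 changed by -0.37 (SE 0.11, adjusted p = 0.0149), and this call was lost without WT replicate 1, KO replicate 1 or KO replicate 3, at -0.29, -0.30 and -0.30 with adjusted p of 0.0630, 0.0627 and 0.0666. With only the 2 conventional groups in the fit Slamf6 was at -0.29 (adjusted p = 0.0586) and Sh2d1a, at 0.16 (SE 0.19, adjusted p = 0.499) in the 4-group fit, was called at 0.24 (adjusted p = 0.0356). Ly9 changed by -0.22 (SE 0.05, adjusted p = 0.00418), and its groups did not overlap. Cd84 was at -0.12 (SE 0.05, adjusted p = 0.0732), and Cd48 at 0.04 (SE 0.08, adjusted p = 0.717) with a 95% interval of -0.14 to 0.22.

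The 6 T cell genes fell in the same KO libraries, and the negative values turn on the scale that is used. Scaled to those genes, the median of all genes moved to 0.53 and the calls over all genes to 44.0% higher and 0.377% lower. Slamf7 (2.12, adjusted p = 3.26e-04) and Slamf1 (0.85, adjusted p = 0.00114) stayed called higher on that scale, and Cd48 (0.63, adjusted p = 0.0126) and Sh2d1a (0.75, adjusted p = 9.01e-04) joined them. Slamf6 (0.21, adjusted p = 0.343), Ly9 (0.37, adjusted p = 0.0742) and Cd84 (0.46, adjusted p = 0.0569) were then positive and not called.

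In regulatory cells the KO difference ran downward in the members that were called. Slamf6 fell to 0.632 of WT, Cd48 to 0.745 and Cd84 to 0.806, each with all 3 KO libraries below all 3 WT libraries. How many of all genes had groups apart in this way was not counted. No member rose. By the same edgeR test 0 members were called higher (0 also at an unadjusted p under 0.05, and by DESeq2 or limma-voom) and 3 of 7 lower, against 4.01% and 3.82% of all genes. Of the members not called, only Slamf1 had an unadjusted p under 0.05 with groups that did not overlap. The members' median was -0.31, beside 0.00 for all genes.

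Slamf6 changed by -0.66 (SE 0.11, adjusted p = 0.00627), Cd84 by -0.31 (SE 0.05, adjusted p = 0.00745) and Cd48 by -0.43 (SE 0.08, adjusted p = 0.0125). These 3 calls held with each library left out in turn and with both libraries of mixed sex left out, where Slamf6 was at -0.66 (adjusted p = 0.0221), Cd84 at -0.33 (adjusted p = 0.0208) and Cd48 at -0.52 (adjusted p = 0.00340). Cd48 was not called when only the regulatory groups were fitted, at -0.42 (adjusted p = 0.0740). Slamf1 was at -0.20 (SE 0.08, adjusted p = 0.127), and Ly9 was at -0.11 (SE 0.05, adjusted p = 0.223). Slamf7 was at 0.13 (SE 0.26, adjusted p = 0.793), with a 95% interval of -0.43 to 0.69 that spans changes in both directions.

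For Sh2d1a the 12-library value was -0.57 (SE 0.19, adjusted p = 0.0909), short of the threshold with overlapping groups. Without the 2 libraries that hold RNA of both sexes it was -0.53 (adjusted p = 0.0145) and called, with WT at 50.02 and 49.4 CPM and KO at 32.7 and 36.03 CPM. With a term for sex it was -0.58 (adjusted p = 0.0434). Leaving out WT replicate 3 alone gave -0.74 (adjusted p = 0.0278). DESeq2 called it with all 12 libraries and no such term, at -0.57 (adjusted p = 0.0254). The call thus depends on the tool and on how the mixed libraries are treated. These 2 libraries also had the lowest T cell gene sums of their groups (1683 and 1083 CPM) and the highest B cell marker sums (6234 and 6098 CPM). Among regulatory libraries the sex term marks the same 2, so sex and cell mix cannot be told apart there. As a share of the summed 6 T cell genes, Sh2d1a was at 2.15%, 2.21% and 2.01% in WT and 1.92%, 1.97% and 2.18% in KO regulatory replicates 1 to 3.

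Here too the T cell genes moved with the groups, from 2322, 2229.8 and 1683 (WT) to 1083, 1662 and 1655 CPM (KO) regulatory replicates 1 to 3, and 1 of the 6 was called lower. Scaled to them, the median of all genes was 0.53 with 32.1% of genes called higher and 0.258% lower, and no member was called. Slamf6 was at -0.13 (adjusted p = 0.534) and Sh2d1a at -0.07 (adjusted p = 0.663), while Cd84 (0.22, adjusted p = 0.312), Cd48 (0.12, adjusted p = 0.552), Slamf1 (0.31, adjusted p = 0.117) and Ly9 (0.42, adjusted p = 0.0566) turned positive. B cell markers summed to 4503, 4416 and 6234 CPM for WT and 6098, 5003 and 4998 CPM in KO regulatory libraries, and their part in these differences was not tested.

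**Figure D2:**
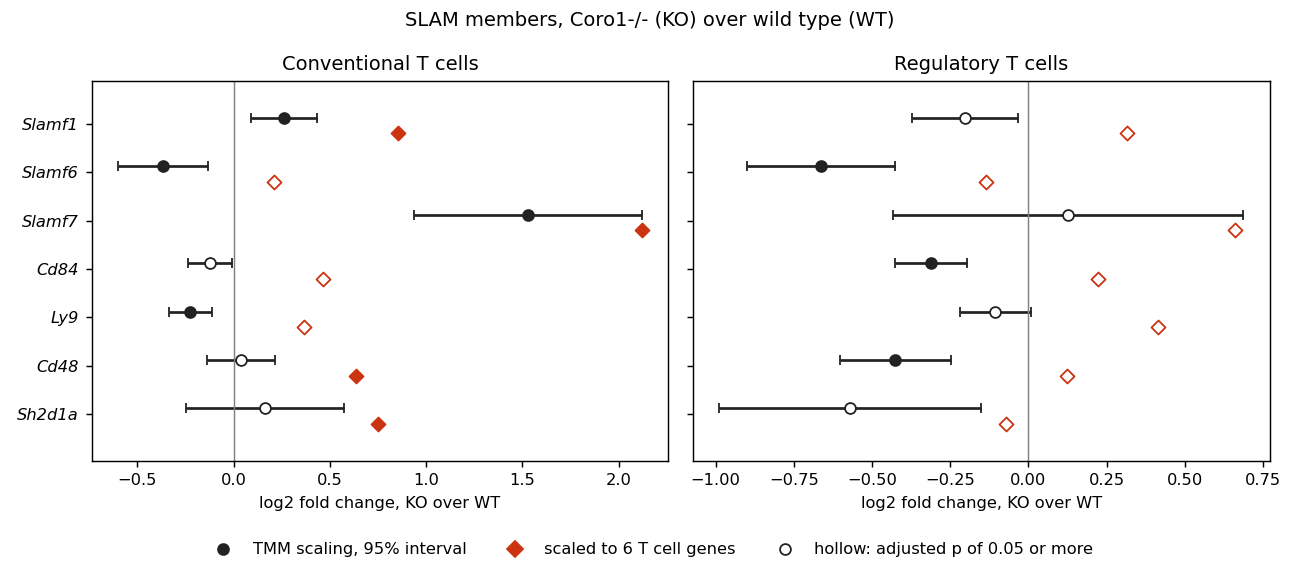
Log2 fold change of KO over WT for the 7 members (rows) in conventional (left) and regulatory (right) T cells, on axes of different range. Black circles with 95% intervals are TMM-scaled values and red diamonds values scaled to 6 T cell genes, filled where the adjusted p is below 0.05. Slamf7 stands at 1.53 on the left, and Slamf6, Cd84 and Cd48 at -0.66, -0.31 and -0.43 on the right, where scaling to T cell genes moves them to -0.13, 0.22 and 0.12.

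Regulatory and conventional cells were then compared within each genotype. In WT cells Slamf7 was 4.39-fold, Slamf1 2.64-fold and Cd48 1.52-fold higher in regulatory than in conventional libraries, while Cd84 and Slamf6 stood at 0.657 and 0.713 of the conventional level. None of these 5 members had overlapping groups, but the share of all genes with groups apart was not counted. So 3 of 7 members were called higher and 2 lower, against 39.1% and 33.3% of all genes, which again does not set the members apart. The values were 2.13 (SE 0.27, adjusted p = 2.73e-05) for Slamf7, 1.40 (SE 0.08, adjusted p = 4.88e-08) for Slamf1 and 0.60 (SE 0.08, adjusted p = 4.17e-05) for Cd48. They were -0.60 (SE 0.05, adjusted p = 1.28e-06) for Cd84 and -0.49 (SE 0.11, adjusted p = 0.00156) for Slamf6. Ly9 (-0.03, SE 0.05, adjusted p = 0.652) and Sh2d1a (-0.13, SE 0.19, adjusted p = 0.557) were not called, with 95% intervals of -0.14 to 0.09 and -0.54 to 0.29.

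In KO cells the same contrast called Slamf1 and Slamf7 higher and Slamf6, Cd84 and Sh2d1a lower, 2 and 3 of 7 against 36.1% and 31.7% of all genes. Slamf1 was at 0.94 (SE 0.08, adjusted p = 1.34e-06) and Slamf7 at 0.73 (SE 0.26, adjusted p = 0.0244). Cd84 was at -0.79 (SE 0.05, adjusted p = 2.75e-07), Slamf6 at -0.78 (SE 0.11, adjusted p = 5.87e-05) and Sh2d1a at -0.86 (SE 0.19, adjusted p = 0.00177), or 0.550 of the conventional level. Cd48 (0.14, SE 0.08, adjusted p = 0.152) and Ly9 (0.09, SE 0.05, adjusted p = 0.138) were not called. Without the 2 libraries of mixed sex Slamf7 was at 0.71 (adjusted p = 0.0526) and Ly9 at 0.14 (adjusted p = 0.0163), so the first call was lost and the second gained. The Slamf7 call was also lost without KO conventional replicate 1, KO conventional replicate 2 or KO regulatory replicate 2, at 0.67, 0.61 and 0.65 with adjusted p of 0.0725, 0.0878 and 0.0844. The contrasts in WT and KO share no library, but each shares its groups with the KO comparisons.

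Scaled to T cell genes, which were lower in regulatory libraries, no member was called lower in either genotype. In WT Slamf1 was then at 2.04 (adjusted p = 3.31e-07), Slamf7 at 2.76 (adjusted p = 1.70e-05), Cd48 at 1.22 (adjusted p = 5.73e-05), Ly9 at 0.61 (adjusted p = 0.00444) and Sh2d1a at 0.48 (adjusted p = 0.00818). Slamf6 (0.15, adjusted p = 0.502) and Cd84 (0.03, adjusted p = 0.890) were not called. In KO the 4 members called higher were Slamf1 (1.50, adjusted p = 8.15e-06), Slamf7 (1.31, adjusted p = 0.00428), Cd48 (0.71, adjusted p = 0.00375) and Ly9 (0.66, adjusted p = 0.00309). That scaling moved the medians of all genes to 0.71 in WT and 0.62 in KO, with 57.3% higher and 6.07% lower in WT and 52.1% and 6.75% in KO. Plasma cell markers, a list of 6 from a cell type known for high Slamf7, summed to 755 to 2157 CPM for WT and 505 to 879.8 CPM in KO regulatory libraries. Other lists also moved with the cell type. Of the 12 B cell, 9 dendritic cell and 14 macrophage and monocyte markers, 12, 9 and 12 were called higher in regulatory than in conventional libraries of WT. In KO the counts were 12, 7 and 0 higher, and 3 macrophage and monocyte markers were lower. The part of these cells in the differences between cell types was not tested.

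Whether the KO difference depended on the cell type was tested as the difference of the KO effects. For Slamf1 the difference was -0.47 (SE 0.11, adjusted p = 0.0125), with a rise in conventional cells and a value below 0 in regulatory cells. For Cd48 it was -0.46 (SE 0.11, adjusted p = 0.0155), with a fall called in regulatory cells and an interval around 0 in conventional ones. For Slamf7 it was -1.40 (SE 0.37, adjusted p = 0.0207), with the rise called in conventional cells alone. Thus edgeR called 0 members higher (0 also at an unadjusted p under 0.05, and by DESeq2 or limma-voom) and 3 of 7 lower, against 8.86% and 12.4% of all genes, and the members' median was -0.46 beside 0.02. Slamf6 (-0.30, SE 0.15, adjusted p = 0.189), Cd84 (-0.19, SE 0.07, adjusted p = 0.0934), Ly9 (0.12, SE 0.07, adjusted p = 0.279) and Sh2d1a (-0.73, SE 0.27, adjusted p = 0.0725) did not pass, so their KO effects were not shown to differ between the cell types.

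The Slamf7 difference was no longer called without WT conventional replicate 2 (-1.23, adjusted p = 0.0543) or KO conventional replicate 3 (-1.20, adjusted p = 0.0539). The Sh2d1a difference was called by DESeq2 (-0.74, adjusted p = 0.0256), without the 2 libraries of mixed sex (-0.69, adjusted p = 0.00442) and with a term for sex (-0.75, adjusted p = 0.0332). Scaled to the 6 T cell genes Sh2d1a, at -0.82 (adjusted p = 0.0234), was the 1 member called. Slamf1, Slamf7 and Cd48 were then at -0.54 (adjusted p = 0.263), -1.46 (adjusted p = 0.0972) and -0.51 (adjusted p = 0.379), and the calls over all genes moved to 0.188% higher and 5.78% lower.

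The balance among the members within a library does not depend on any scaling between libraries. Each level was set against the geometric mean of the 7 in the same library. Slamf7 moved most, from -3.01 ± 0.541 in WT to -1.59 ± 0.310 in KO conventional and from -1.20 ± 0.194 in WT to -0.75 ± 0.146 in KO regulatory cells (log2, SD, n = 3). Slamf6 moved the other way, from 1.73 ± 0.0359 to 1.16 ± 0.213 in conventional and from 0.82 ± 0.0574 to 0.47 ± 0.0647 in regulatory cells, and KO and WT libraries did not overlap in either. Ly9 went from 1.48 ± 0.174 to 1.06 ± 0.0582 in conventional and from 1.03 ± 0.0605 to 1.23 ± 0.00607 in regulatory cells. A rise of 1 member lowers all others on this scale.

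The ratio of Slamf1 to Slamf6 put all 4 groups apart. Slamf1 stood at 9.64%, 10.1% and 11.4% of Slamf6 in WT conventional and at 16.4%, 14.2% and 17.9% in KO conventional libraries. In WT regulatory libraries it stood at 42.3%, 35.3% and 37.7%, and in KO regulatory ones at 49.0%, 56.5% and 52.5%. Groups did not overlap, and KO exceeded WT in both cell types. This ratio was singled out after its values were seen and was not tested. The 7 members together summed to 897 to 970.4 CPM in WT conventional, 822 to 899 in KO conventional, 874 to 998 in WT regulatory and 715 to 779 CPM in KO regulatory libraries, the last below all others.

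**Figure D3:**
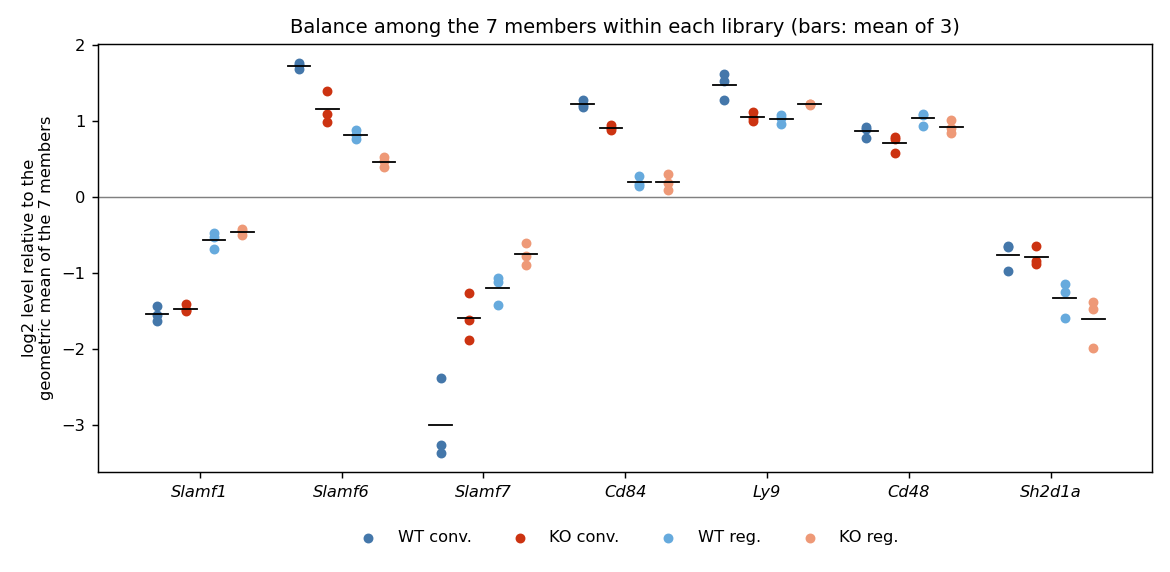
Log2 level of each member relative to the geometric mean of the 7 in the same library (0 is that mean), 1 point per library, coloured by group, with a bar at the mean of 3. Slamf7 climbs from -3.01 in WT conventional to -0.75 in KO regulatory cells while Slamf6 descends from 1.73 to 0.47.

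Other genes of the pathway were followed through a list of 26, of which 25 were tested. In KO conventional cells 7 of those 25 rose and 8 fell, near the 23.3% and 25.4% of all genes, with a median of -0.09 beside -0.05 for all genes. In KO regulatory cells 2 were higher and 3 lower, against 4.01% and 3.82% of all genes. For the difference of effects the counts were 5 and 5, against 8.86% and 12.4% (0 and 3 on the T cell gene scale, against 0.188% and 5.78%). Between the cell types 12 were higher and 10 lower in regulatory cells of WT, against 39.1% and 33.3% of all genes, and 9 and 11 in those of KO, against 36.1% and 31.7%. On the T cell gene scale these became 14 and 3 in WT, against 57.3% and 6.07% of all genes, and 12 and 3 in KO, against 52.1% and 6.75%. Scaled to T cell genes the KO counts became 15 higher and 0 lower in conventional cells, where 44.0% of all genes were higher and 0.377% lower. They became 13 and 0 in regulatory cells, where the shares of all genes were 32.1% and 0.258%. That scale thus moves genes upward in general. The receptors that rose in KO conventional cells were ones known from NK and myeloid cells. Cd244a, the NK receptor that binds Cd48, went from 2.42, 2.12 and 1.60 CPM to 34.7, 25.5 and 49.6 CPM, which was 4.16 (SE 0.29, adjusted p = 2.99e-06) on the log2 scale. Slamf8, a receptor of macrophages, changed by 2.66 (SE 0.36, adjusted p = 1.43e-04) and Slamf9 by 2.68 (SE 0.53, adjusted p = 0.00163), both from levels at or below 1.17 CPM in WT.

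The adaptor genes differed from each other. Sh2d1b1 encodes EAT-2, which takes the place of SAP in NK and myeloid cells, and it went from 1.51, 2.87 and 2.27 to 11.996, 9.03 and 16.4 CPM (2.49, SE 0.39, adjusted p = 3.98e-04), whereas Sh2d1a was not called there. Its neighbour copy Sh2d1b2 had at most 4 counts in a library and was not tested. In regulatory cells Cd244a (0.48, SE 0.26, adjusted p = 0.260), Slamf8 (0.32, SE 0.32, adjusted p = 0.567), Slamf9 (-0.07, SE 0.39, adjusted p = 0.934) and Sh2d1b1 (0.31, SE 0.36, adjusted p = 0.630) were not called. The differences of the KO effects were called for all 4, at -3.67 (SE 0.38, adjusted p = 2.44e-04), -2.34 (SE 0.48, adjusted p = 0.00610), -2.75 (SE 0.66, adjusted p = 0.0135) and -2.18 (SE 0.53, adjusted p = 0.0141) in that order, and with T cell gene scaling for all but Sh2d1b1 (-2.20, adjusted p = 0.0833). NK cell, macrophage and dendritic cell markers were higher in the same KO conventional libraries, and their part in these rises was not tested.

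Among signalling partners, Fyn, the kinase that SAP recruits, was at -0.18 (SE 0.08, adjusted p = 0.0954) in conventional cells and was lower in regulatory cells, at -0.45 (SE 0.08, adjusted p = 0.0117). Prkcq, the kinase downstream of SAP and Fyn at the T cell contact site, was lower in both, at -0.35 (SE 0.12, adjusted p = 0.0335) and -0.45 (SE 0.12, adjusted p = 0.0449). Cd2, a T cell receptor for Cd48, was at -0.46 (SE 0.12, adjusted p = 0.00717) and -0.30 (SE 0.12, adjusted p = 0.139). On the T cell gene scale Fyn was at 0.41 (adjusted p = 0.0357) and 0.08 (adjusted p = 0.644), Prkcq at 0.24 (adjusted p = 0.133) and 0.07 (adjusted p = 0.655), and Cd2 at 0.12 (adjusted p = 0.414) and 0.21 (adjusted p = 0.174), all positive. Of the inhibitory phosphatase genes, Inpp5d rose by 0.26 (SE 0.07, adjusted p = 0.00949) in conventional cells. It rose by 0.37 (SE 0.07, adjusted p = 0.0122) in regulatory cells, and did so on the T cell gene scale as well, at 0.86 (adjusted p = 0.00609) and 0.89 (adjusted p = 0.0235). On that scale 44.0% and 32.1% of all genes were called higher in KO. Ptpn6 was at -0.11 (SE 0.11, adjusted p = 0.400) and 0.37 (SE 0.11, adjusted p = 0.0583), with a difference of effects of 0.48 (SE 0.15, adjusted p = 0.0416) that was not called with T cell gene scaling (0.40, adjusted p = 0.801). In regulatory libraries Ptpn6 was highest in WT replicate 3 (617 CPM) and KO replicate 1 (724 CPM), which had the highest B cell marker sums of their groups. Inpp5d was highest in WT replicate 3 (303 CPM) and KO replicate 2 (359 CPM). The part of other cells in these values was not tested.

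The T cell programmes in which SLAM receptors are best known were described through 2 lists. Of 17 follicular helper genes KO conventional cells had 10 higher and 4 lower, against 23.3% and 25.4% of all genes, with a median of 0.91 beside -0.05 for all genes. The list as a sum did not rise. It stood at 1857, 1736 and 1764 CPM in WT and at 1489, 1908 and 1639 CPM in KO conventional replicates 1 to 3. On the T cell gene scale the counts were 12 higher and 0 lower, against 44.0% and 0.377% of all genes, with a median of 1.50 beside 0.53. In KO regulatory cells 0 of the 17 were higher and 2 lower, against 4.01% and 3.82% of all genes. The counts were 2 and 2 without the libraries of mixed sex, against 3.95% and 3.47%. On the T cell gene scale they were 7 and 1, against 32.1% and 0.258%. Bcl6, the lineage factor of follicular helper cells, went from 35.04, 33.1 and 33.5 to 54.6, 69.2 and 67.8 CPM (0.91, SE 0.13, adjusted p = 1.84e-04), and the chemokine receptor gene Cxcr5 from 29.3, 16.1 and 14.8 to 22.7, 61.2 and 45.3 CPM (1.10, SE 0.31, adjusted p = 0.0131) with overlapping groups. B cells also express both. The list of 12 innate-like T cell genes shares Klrb1c with the NK cell list. KO conventional cells had 11 of the 12 higher and 0 lower, against 23.3% and 25.4% of all genes, with a median of 2.03. In KO regulatory cells the counts were 1 and 0, against 4.01% and 3.82% of all genes. They were 0 and 1 without the libraries of mixed sex, and 4 and 0 on the T cell gene scale, against 32.1% and 0.258%. Zbtb16, which encodes the innate-like T cell factor PLZF, went from 11.2, 6.88 and 5.35 to 32.1, 32.2 and 26.6 CPM (1.96, SE 0.36, adjusted p = 0.00103), with no overlap. All 3 stayed called on the T cell gene scale, at 1.50 (adjusted p = 2.69e-04), 1.66 (adjusted p = 0.00213) and 2.53 (adjusted p = 7.27e-05). In the same libraries NK cell marker sums were 66.8 to 82.2 CPM for WT and 347 to 674 CPM in KO, and gamma delta T cell markers 25.8 to 42.6 and 194 to 217 CPM, and their part in these counts was not tested.

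The neighbours of the chromosome 1 members were counted in the same way. Within 500 kb of the outermost members lay 75 annotated genes, of which 6 members and 40 others were tested. In KO conventional cells 9 of the 40 others were higher and 7 lower, near the 23.3% and 25.4% of all genes, and in KO regulatory cells 1 and 2, against 4.01% and 3.82%. The 6 members counted 2 and 2 in conventional and 0 and 3 in regulatory cells. Cd244a spans Ly9 on the opposite strand, and in KO conventional cells the 2 genes stood at 4.16 and -0.22. Counting was by strand per the file name, which keeps the reads of this pair apart. Slamf6 overlaps Gm37065 on the opposite strand (at most 7.33 CPM) and Cd48 overlaps Gm37010 on the same strand (at most 1.48 CPM), so reads shared by the latter pair are uncertain.

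**Figure D4:**
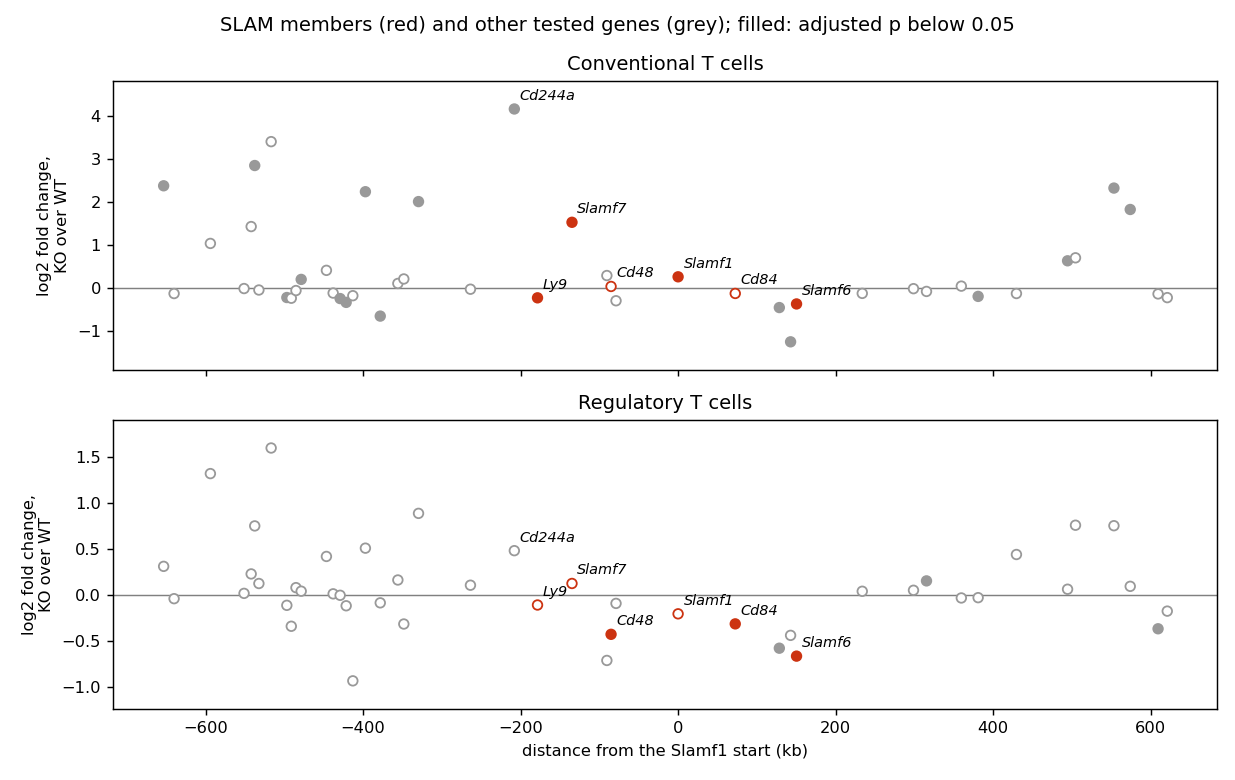
Log2 fold change of KO over WT for 46 tested genes around the chromosome 1 members against the distance of their start from the Slamf1 start in kb (0), in conventional (top) and regulatory (bottom) T cells, on axes of different range. Members are red and other genes grey, filled where the adjusted p is below 0.05. Cd244a is highest at the top at 4.16, and 3 of the 6 members (Cd48, Cd84 and Slamf6) are filled at the bottom.

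Correlations across the 12 libraries are given as descriptions, since the libraries fall into 4 groups of 3 and share the differences between those groups. Among members, log2 CPM of Slamf6 and Cd84 ran together (Pearson's r = 0.91) and Slamf1 ran with Slamf7 (0.81) and Cd48 (0.79) and against Cd84 (-0.89). Ly9 was nearly unrelated to Cd84 (0.04) and to Slamf1 (0.11). Of 10470 genes with a mean of at least 5 CPM, those most like Slamf1 were Ergic1 (0.995), Cish (0.993) and Dnah7a (0.993). For Slamf7 they were Serhl (0.986), Dennd4a (0.986) and Zcchc18 (0.983), and for Slamf6 Ankrd28 (0.977), Zdhhc20 (0.975) and Mthfsd (0.968). Cd84 was most like Uvssa (0.995), Sun1 (0.993) and Ankrd16 (0.993), and Ly9 most like Dnaja2 (0.981), Ociad1 (0.972) and Pcmt1 (0.966). Cd48 was most like Bcap29 (0.946), Ebag9 (0.941) and Etfdh (0.935). Sh2d1a was most like Trbv29 (0.964), a T cell receptor segment, and then Cstf3 (0.947) and Ostm1 (0.929).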

How the data were processed

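RNA of 12 libraries was measured as raw counts per Ensembl gene, deposited as 1 table of 45706 genes and 4 tallies of unassigned reads, which were left out. Per the submitters' processing notes the authors mapped reads with STAR 1.7.20 to GRCm38, and per the file name they counted on the reverse strand; the annotation release is not given in the sources used here. Groups came from titles and genotype labels. The 7 members and all lists were chosen with earlier results of these data known.

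Symbols, positions and exon lengths were taken from GENCODE M21 (45143 IDs matched) and promoters from RefSeq (GRCm38.p6), which matched 5 of the 7 members. In R 4.3.3, edgeR 4.0.16 fitted all 12 libraries with a mean per group. The filterByExpr function, at a minimum count of 10 and a minimum total of 15, left 15922 genes with all 7 members among them. Counts were scaled with TMM and tested two-sided by the quasi-likelihood test with a Benjamini-Hochberg threshold of 0.05. The standard error is the fold change over the root of F, and the biological coefficient of variation was 0.155. Log2 CPM for correlations used a prior count of 2. Named genes were the members, pathway receptors, adaptors and partners by role, 3 lineage genes, 3 most similar genes per member, and overlapping neighbours. The most abundant follicular helper genes of WT conventional libraries were named as well. Alternatives were RLE and upper-quartile factors, scaling to 6 T cell genes, DESeq2 1.42.0, limma-voom (limma 3.58.1), other filters, subsets of groups, a replicate block, a sex term, each library left out, 2 libraries left out and a threshold of 0.01. The edgeR fit was tried on simulated counts in which a small set of genes changed in both directions in KO conventional libraries. That simulation held no difference in cell mix and cannot bear on the choice of scaling. Figures used Python 3.11.15 and matplotlib 3.10.9.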

Additional observations from a re-analysis of the deposited data

Results flagged for a closer look

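For 3 members the KO difference itself differed between regulatory and conventional T cells by edgeR's quasi-likelihood test of the difference, with Benjamini-Hochberg adjustment over all genes. All 3 were called lower, against 12.4% of all genes, and 8.86% of all genes were called higher. How many of all genes had KO and WT libraries apart was not counted. For Slamf1 the regulatory minus conventional difference in log2 fold change was -0.47 (adjusted p = 0.0125). It was 0.26 in conventional cells, where all 3 KO libraries lay above all 3 WT libraries, and -0.20 in regulatory cells, where all 3 lay below. For Cd48 it was -0.46 (adjusted p = 0.0155), from 0.04 with overlapping groups in conventional cells to -0.43 with all 3 KO libraries below in regulatory cells. For Slamf7 it was -1.40 (adjusted p = 0.0207), from 1.53 with all 3 KO libraries above in conventional cells to 0.13 with overlapping groups in regulatory cells. Scaled to 6 T cell genes, the differences were as large, at -0.54 for Slamf1, -0.51 for Cd48 and -1.46 for Slamf7, but none of the 3 was called (adjusted p = 0.263, 0.379 and 0.0972).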

How the results depend on the processing

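Over the alternatives, 737 values of single members kept their direction and side of the threshold and 18 reversed. Another 23 gained and 20 lost a call without reversing. Some reversed values changed their call as well. On the T cell gene scale, for instance, Slamf6 lost its call in KO conventional cells, and Ly9 gained one between the cell types in WT.

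Scaled to 6 T cell genes, called members became 4 higher and 0 lower in KO conventional cells, 0 lower in KO regulatory cells, 5 higher and 0 lower for regulatory against conventional cells in WT, 4 and 0 in KO, and 1 lower for the difference of effects, with 5157 genes called in KO regulatory cells and 951 for the difference. Reversed there were Slamf6 0.21, Cd84 0.46 and Ly9 0.37 in KO conventional cells, Slamf1 0.31, Cd84 0.22, Ly9 0.42 and Cd48 0.12 in KO regulatory cells, and Slamf6 0.15, Cd84 0.032, Ly9 0.61 and Sh2d1a 0.48 between cell types in WT. That last Ly9 value, near 0 throughout, was 0.0034 with upper-quartile factors, 0.014 with only the groups compared, 0.0035 without the 2 libraries of mixed sex and 2.22e-04 without WT regulatory replicate 3. The Sh2d1a value was 0.040 and 0.037 in the last 2 settings, and ranged from -0.22 to 0.037 over single libraries left out, Ly9 from -0.059 to 2.22e-04. Cd48 in KO conventional cells was -0.0025 without KO replicate 3 and at most 0.10 with another library left out. These causes were not tested.

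At a threshold of 0.01, 1 member each was called higher and lower in KO conventional cells, 1 higher for regulatory against conventional cells in KO and 0 for the difference, with 253 genes called in KO regulatory cells and 1425 for the difference. In KO conventional cells 5229 of 15922 genes were called either way at that threshold, and 8926 between the cell types in KO. With only the groups compared, 1 member was lower and 7528 genes were called either way in KO conventional cells. In KO regulatory cells 313 genes were called. DESeq2 called 2010 there. A filter of 1 CPM in 3 libraries gave 5 members lower for the difference, adding Cd84 and Sh2d1a, with 3091 of all genes called either way.

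With each library left out in turn, members called ranged from 1 to 2 higher and 1 to 3 lower in KO conventional cells, from 3 to 4 lower in KO regulatory cells, from 1 to 3 higher for regulatory against conventional cells in KO, and from 2 to 4 lower for the difference. Genes called in KO regulatory cells ranged from 439 to 1974. They ranged from 6073 to 8100 in KO conventional cells, from 10054 to 11110 between the cell types in KO and from 2311 to 3793 for the difference.

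Same-numbered libraries of different groups correlated between -0.518 and 0.176 in their deviations, and differently numbered ones between -0.458 and 0.567. These values show no pairing by number but cannot exclude one, since differences in cell mix also enter the deviations. In both conventional groups replicates 1 and 2 carried Xist and replicate 3 Y-linked reads. The replicate block left every call of a member in place, with Slamf6 in KO regulatory cells at -0.66 (edgeR adjusted p = 0.0129). The search for tyrosine switch motifs in the proteins was not run. Depth limits Slamf7 most among members, at 233 counts in its lowest library.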
